A study of Mus musculus with 11 samples.

Results

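Imprinted genes that control growth were followed through long-term culture of mouse small-intestinal organoids: Grb10, Igf2, H19, Igf2r, Cdkn1c, Peg3, Mest, Plagl1, Dlk1 and Meg3. They were chosen by name, as a fixed list of 10 genes. This list and the other gene lists below were made with earlier results of these data known. All 10 were found by matching the identifiers in the count tables to gene symbols, among 37310 genes in all, with 0 missing. RNA was sequenced from organoids, epithelial cultures grown from crypts in a basement membrane gel, of 2 mice carrying the Lgr5-EGFP-IRES-creERT2 allele, a knock-in that labels Lgr5-expressing stem cells. All libraries share this genotype, and no label names an agent applied to the cultures. The late group held passages 11, 12 and 13 of mouse_285 and of mouse_283 (n = 6), and the early group held passages 2 and 4 of mouse_285 and passages 2, 3 and 4 of mouse_283 (n = 5). Cultures were split every 7 days. The protocol names mice of 4 and 24 months, but no label gives either age to an animal, so ages were not compared. Each animal contributed successive passages of its own cultures, so the p-values rest on the spread between passages of 2 animals.

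In imprinted genes mainly the copy from one parent is active, under the control of DNA methylation set in the germ line and kept through cell division. Many of the paternally expressed members promote growth before birth and many of the maternally expressed ones restrain it, and most are abundant in fetal tissues and low in adult ones. Igf2 encodes insulin-like growth factor 2, which signals through the receptors encoded by Igf1r and Insr, and Igf2r encodes a receptor that carries IGF2 to the lysosome. Loss or relaxation of imprints is a known hazard of cell culture. The counts used here sum both parental copies, so they give total RNA and cannot tell the copies apart. In these bulk libraries, fewer cells of a type and less RNA per cell cannot be told apart either.

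Gene reads per library ran from 15114132 to 28949911, and levels are given as CPM, the reads of a gene scaled to a common total of gene reads with library normalisation factors. A limit of 3 reads corresponded to 0.104 to 0.198 CPM in a library and covers counting error only. The early libraries of passages 3 and 4 of mouse_283 differed from the others in composition. In them log2 CPM rose by 0.990 and 0.788 per 10 percentage points of transcript GC content, against -0.410 to 0.205 in the other 9 libraries, and stage differences over both animals that moved by over 1.5 times or changed sign without them are also given without them. Epithelial markers, 12 of them from Epcam to Lgr5, summed to 9656 to 12600 CPM in late libraries and 10460 to 22110 CPM in early ones. The 15 mesenchymal and smooth muscle markers summed to 12.3 to 20.3 CPM late and 13.0 to 22.4 CPM early, most of it from Vim. Dcn, Lum and Thy1 were at 0 in every library. Pdgfrb ran from 0.359 to 2.11 CPM late and from 1.42 to 4.47 CPM early. Its log2 fold change was -1.31 (adjusted p = 0.123), and -0.83 (adjusted p = 0.275) without passages 3 and 4 of mouse_283. Col1a1 reached 0.259 CPM late and 0.855 CPM early, and Postn 0.587 CPM late and 0.325 CPM early. The 6 endothelial markers summed to at most 0.873 CPM late and 0.964 CPM early, with Kdr and Emcn at 0. The 7 neural and glial markers summed to 10.2 to 22.8 CPM late and 18.9 to 35.7 CPM early, most of it from Ret, which was called within mouse_283 (adjusted p = 0.0344) but not over both animals (log2 fold change -0.96, adjusted p = 0.0912, and -0.53, adjusted p = 0.181, without passages 3 and 4 of mouse_283), with Sox10 at 0. The 8 immune markers summed to 6.17 to 10.1 CPM late and 4.63 to 15.5 CPM early, most of it from Itgam. The part of these cell types in the results was not tested.

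One member dominated the group. Igf2r averaged 201 ± 45.8 CPM in late libraries (SD, n = 6) and 180 ± 57.6 CPM in early libraries (SD, n = 5), and it supplied 81.7% to 94.8% of the summed CPM of the 10 genes in each library. Plagl1, Cdkn1c and Igf2 averaged 12.8, 7.49 and 4.29 CPM over the 11 libraries, with single libraries of Igf2 as low as 0.554 CPM, while H19, Dlk1, Grb10, Mest and Peg3 stayed near or under 1 CPM on average. Meg3 had 0 reads in all 11 libraries, which allows up to 0.0132 CPM over the libraries together. Per length, with the longest annotated transcript of each gene, the order was Igf2r at 21.6 CPM per kb, Cdkn1c at 3.94, Plagl1 at 2.44, Igf2 at 0.907, H19 at 0.403, Mest at 0.145, Dlk1 at 0.125, Grb10 at 0.0590, Peg3 at 0.0255 and Meg3 at 0 CPM per kb (means of 11 libraries). Igf2r lay above Cdkn1c in 11 of 11 libraries, with ranges of 11.7 to 29.7 and 2.09 to 6.33 CPM per kb that did not meet. Every other pair of neighbours in this order had overlapping ranges. Compared within the same library, the higher of such a pair lay above in 6 to 9 of 11 libraries. The 9 held for Plagl1 over Igf2 and for Igf2 over H19.

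**Figure D1:**
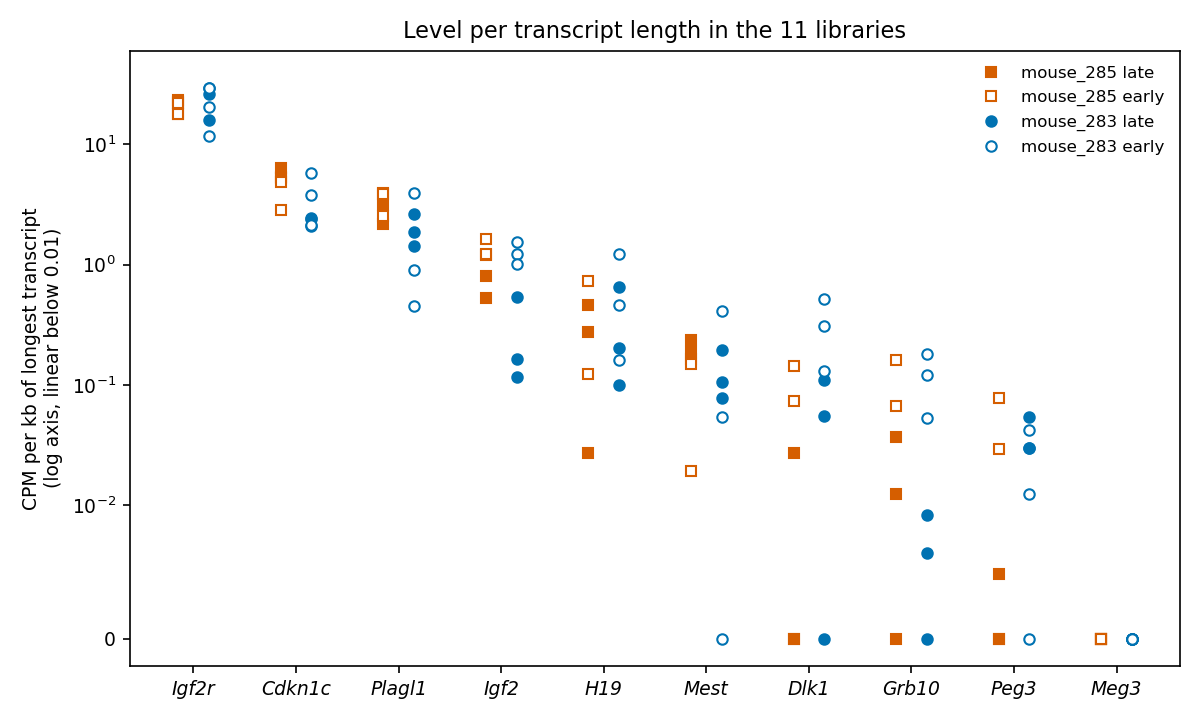
Level of each of the 10 imprinted genes in CPM per kb of its longest transcript (vertical axis, logarithmic above 0.01 and linear below), with 1 point per library, filled for late and open for early, squares for mouse_285 and circles for mouse_283. Igf2r lies between 11.7 and 29.7 CPM per kb in all 11 libraries, above every point of the other members, and Meg3 lies at 0.

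Some of these counts share their locus with other transcripts. Mest had 86 reads in all libraries together when strand was ignored, against 454 when the sense and antisense columns were summed, so 81.1% of the summed reads were not assigned without strand. The gene of the files that overlaps the exons of Mest on the opposite strand is Copg2, itself imprinted in some tissues. Igf2 had 905 reads without strand against 966 summed, and its antisense partner Igf2os had 88 against 149. The libraries were unstranded, with 49.99% to 50.2% of stranded reads in the first strand column, so sense and antisense reads of Mest and Copg2 and of Igf2 and Igf2os cannot be separated. For the other detected members the 2 ways of counting gave identical numbers. Airn, the antisense RNA that starts inside Igf2r and silences its paternal copy, averaged 3.28 ± 0.503 CPM late and 3.18 ± 1.69 CPM early (SD, n = 6 and 5), and reads of Airn and of unspliced Igf2r RNA cannot be told apart without strand. The microRNAs inside the Igf2, H19 and Mest loci, Mir483, Mir675 and Mir335, had 0 reads.

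The stage comparison asked which of these genes changed with culture. Grb10, the adaptor that binds the insulin and IGF1 receptors and dampens their signal, was lower in late organoids, and it was the only member of the 8 tested whose adjusted p passed 0.05. Over all 13793 genes tested the share called was 3.13%, with 0.725% higher and 2.41% lower late, so 1 of 8 is to be read against that background. In mouse_285, Grb10 stood at 0, 0.0624 and 0.186 CPM at passages 11, 12 and 13, against 0.340 and 0.818 CPM at passages 2 and 4. In mouse_283 it stood at 0.0468, 0.0326 and 0 CPM at passages 11, 12 and 13, against 0.916, 0.269 and 0.614 CPM at passages 2, 3 and 4. Every late library was below every early library, a pattern that 3.63% of all tested genes shared. The log2 fold change, late over early, was -3.49 (SE 0.68, adjusted p = 0.0175, edgeR quasi-likelihood test).

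Grb10 nevertheless rested on few reads: 6 in the 6 late libraries together and 59 in the 5 early ones. The late rate was 0.0797 of the early rate, with an exact 95% counting interval of 0.0281 to 0.184. No late library had more than 3 reads, so the gene passed the filter on low counts only through its early libraries, and a gene that enters a fit in that way had to differ. The call was lost without passage 12 of mouse_283 (-3.39, adjusted p = 0.0590) or without passage 4 of mouse_285 (-3.32, adjusted p = 0.0763), and without passage 2 or without passage 4 of mouse_283 the gene was no longer tested. Without the 2 libraries with the steep GC trend the value was -3.68 (adjusted p = 0.0126).

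Dlk1 and Igf2 were also lower in every late library than in every early library of the same animal, but did not pass the threshold over all genes. Of all tested genes, 5.61% showed that pattern, and the members that did are given as a description, since Grb10 and Dlk1 entered the fit through their early libraries. Dlk1, a transmembrane relative of the Notch ligands that is paternally expressed, had 0.126, 0 and 0 CPM at passages 11, 12 and 13 of mouse_285, against 0.340 and 0.665 CPM at passages 2 and 4. In mouse_283 Dlk1 had 0.514, 0 and 0.259 CPM at passages 11, 12 and 13, against 0.611, 2.42 and 1.45 CPM at passages 2, 3 and 4. The highest early values were those of passages 3 and 4 of mouse_283, the libraries with the steep GC trend. The log2 fold change was -2.76 (SE 0.74, adjusted p = 0.0662), from 19 late and 114 early reads, and -2.18 without those 2 libraries (adjusted p = 0.191). Its late level was at most 0.514 CPM.

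Igf2 averaged 2.63 ± 1.92 CPM in late libraries (SD, n = 6) and 6.27 ± 1.20 CPM in early libraries (SD, n = 5), from 297 late and 608 early reads. In mouse_285 it stood at 2.47, 5.67 and 3.78 CPM at passages 11, 12 and 13, against 7.65 and 5.83 CPM at passages 2 and 4. In mouse_283 it stood at 2.53, 0.554 and 0.776 CPM at passages 11, 12 and 13, against 7.33, 5.76 and 4.77 CPM at passages 2, 3 and 4. Passage 12 of mouse_285 was the only late library above an early one, and only above passage 4 of mouse_283. The log2 fold change over both animals was -1.57 (SE 0.44, adjusted p = 0.0738). No member passed within either animal, where 1.48% of genes did in mouse_283 and none in mouse_285. Within mouse_285 the value of Igf2 was -0.77 (SE 0.56, adjusted p = 0.992) and within mouse_283 -2.22 (SE 0.54, adjusted p = 0.0745), and the difference between these was 1.45 (SE 0.78, adjusted p = 0.990). The value over both animals passed the threshold without passage 2 of mouse_283 (-1.41, adjusted p = 0.0257), in a fit in which 4868 genes did. The early libraries of mouse_283 were then only passages 3 and 4, those with the steep GC trend. The unadjusted p of Igf2 was 0.00520 in that fit, against 0.00342 with all libraries. Within mouse_283 the value of Igf2 was -2.53 without passages 3 and 4. That last fit leaves 1 early library of mouse_283, which is assumed to vary like the libraries of the other groups.

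**Figure D2:**
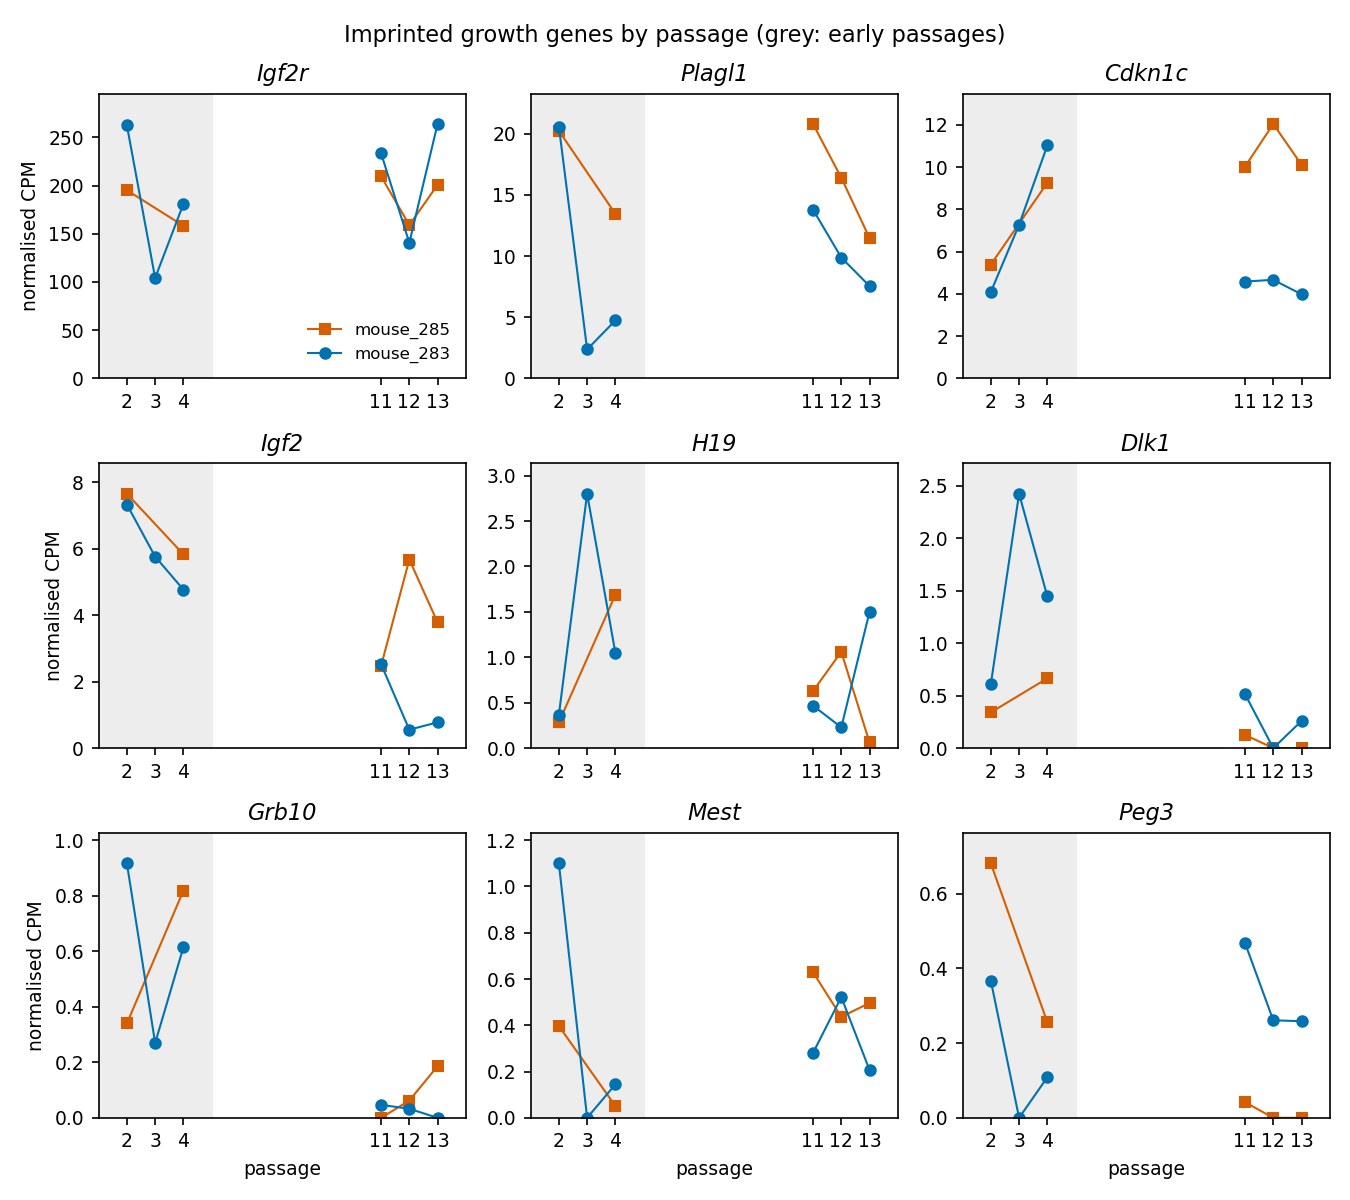
Normalised CPM (vertical axis, linear, own scale per gene) against passage number (horizontal axis) for the 9 detected members, 1 point per library, orange squares for mouse_285 and blue circles for mouse_283; lines join successive passages of a stage and early passages are shaded. Grb10 lies at 0 to 0.186 CPM in all 6 late libraries and at 0.269 to 0.916 CPM in the 5 early ones, while Igf2r, Plagl1 and H19 overlap between stages in both animals.

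The promoters of these genes are shown because the series also set out to measure DNA methylation, which acts at CpG sites, and because the genes whose levels separated by stage in both animals differ widely in CpG content. Windows from 250 bases before to 50 bases after annotated starts were taken from RefSeq (GRCm38.p6, a later build than the mm9 of the counts). They covered 8 of the 10 members with 15 windows, and H19 and Cdkn1c had none in the table. CpG sites are in capitals, and each sequence runs 5′ to 3′ on the gene's strand. The Grb10 window is chr11:12037371-12037670 (minus strand), the Dlk1 window chr12:109452573-109452872 (plus strand), the Igf2 window, the one with the most CpG of its 4, chr7:142658755-142659054 (minus strand), and the Igf2r window chr17:12769657-12769956 (minus strand).
Grb10: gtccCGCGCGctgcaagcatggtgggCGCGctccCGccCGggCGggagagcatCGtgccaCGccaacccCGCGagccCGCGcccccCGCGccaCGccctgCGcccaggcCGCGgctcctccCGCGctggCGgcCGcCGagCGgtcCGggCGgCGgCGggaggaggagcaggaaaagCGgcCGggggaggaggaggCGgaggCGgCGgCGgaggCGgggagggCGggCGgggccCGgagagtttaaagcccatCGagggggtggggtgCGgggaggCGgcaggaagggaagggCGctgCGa
Dlk1: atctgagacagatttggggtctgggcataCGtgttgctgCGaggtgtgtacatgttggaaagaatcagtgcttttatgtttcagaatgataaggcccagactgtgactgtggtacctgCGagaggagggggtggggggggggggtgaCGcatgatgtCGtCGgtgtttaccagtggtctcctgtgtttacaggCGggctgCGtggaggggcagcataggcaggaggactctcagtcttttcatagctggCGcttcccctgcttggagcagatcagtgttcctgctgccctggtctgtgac
Igf2: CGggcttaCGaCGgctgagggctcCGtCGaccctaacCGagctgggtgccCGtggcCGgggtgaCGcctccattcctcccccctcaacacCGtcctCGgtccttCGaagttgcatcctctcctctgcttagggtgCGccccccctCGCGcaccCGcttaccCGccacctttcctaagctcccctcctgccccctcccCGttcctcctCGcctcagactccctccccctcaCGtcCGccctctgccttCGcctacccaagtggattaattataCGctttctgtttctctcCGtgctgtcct
Igf2r: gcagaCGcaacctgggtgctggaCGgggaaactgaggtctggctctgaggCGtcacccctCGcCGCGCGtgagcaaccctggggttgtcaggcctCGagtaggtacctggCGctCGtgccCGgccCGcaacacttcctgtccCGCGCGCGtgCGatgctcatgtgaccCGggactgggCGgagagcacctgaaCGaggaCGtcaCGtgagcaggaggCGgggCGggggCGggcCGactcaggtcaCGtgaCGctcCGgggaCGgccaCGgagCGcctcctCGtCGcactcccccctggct

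The printed Grb10 window, the one with the most CpG of its 2, held 45 CpG sites, a number that 1.93% of 32851 mouse promoter windows reached. The second Grb10 window held 9, reached by 45.8% of windows. The Dlk1 window held 9 and the Igf2 windows 2, 14, 24 and 7, against a median of 7 over all windows. The Igf2r window held 34, reached by 7.73% of windows. The hexamer TGCCGC, which the imprint-protecting zinc finger protein ZFP57 recognises when methylated, was searched on both strands. It lay in 6 of the 15 windows, belonging to the 5 members Mest, Igf2, Plagl1, Grb10 and Meg3, against 11.6% of all windows, and 2 of the 6 are Mest windows that start 3 bases apart and hold the same matches. The hexamer itself contains a CpG, and the share over all windows was not matched for CpG content, so no excess is read from it. A match in these letters is a description of the window and not a binding site. Whether the windows hold the methylated sites of the imprints was not tested.

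For the remaining members no difference between stages passed the threshold. H19, the maternally expressed non-coding RNA that shares enhancers with Igf2, averaged 0.658 ± 0.538 CPM late and 1.24 ± 1.04 CPM early (SD, n = 6 and 5), with a log2 fold change of -0.88 (SE 0.70, adjusted p = 0.414). In mouse_285 H19 stood at 0.629, 1.06 and 0.0620 CPM at passages 11, 12 and 13, against 0.283 and 1.69 CPM at passages 2 and 4. In mouse_283 it stood at 0.468, 0.228 and 1.50 CPM at passages 11, 12 and 13, against 0.367, 2.80 and 1.05 CPM at passages 2, 3 and 4. The stages overlapped in both animals, and without passages 3 and 4 of mouse_283 the log2 fold change was -0.22 (adjusted p = 0.906). At passage 2, where Igf2 was highest in both animals, H19 had its lowest early value in each, while at passage 12 of mouse_283 both genes had their lowest value of that animal.

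Igf2r was at 210, 159 and 201 CPM at passages 11, 12 and 13 of mouse_285, against 195 and 158 CPM at passages 2 and 4. In mouse_283 it was at 234, 141 and 264 CPM at passages 11, 12 and 13, against 262, 104 and 181 CPM at passages 2, 3 and 4. Its log2 fold change was 0.17 (SE 0.24, adjusted p = 0.647) and turned to -0.06 without passages 3 and 4 of mouse_283. Plagl1, a zinc finger transcription factor that restrains cell division and acts on other imprinted genes, averaged 13.3 ± 4.78 CPM late and 12.3 ± 8.50 CPM early (SD, n = 6 and 5; log2 fold change 0.08, SE 0.44, adjusted p = 0.922). Without passages 3 and 4 of mouse_283 the log2 fold change of Plagl1 was -0.43 (adjusted p = 0.386). In mouse_285 Plagl1 had 20.8, 16.4 and 11.5 CPM at passages 11, 12 and 13, against 20.2 and 13.5 CPM at passages 2 and 4. In mouse_283 it had 13.8, 9.88 and 7.55 CPM at passages 11, 12 and 13, against 20.6, 2.37 and 4.73 CPM at passages 2, 3 and 4. Its lowest values were thus the 2 libraries with the steep GC trend, and its transcript has a GC content of 46.4%. Across the 11 libraries log2 CPM of Plagl1 and the library's GC trend had a Pearson r of -0.87, and -0.33 over the 9 other libraries, as a description.

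Plagl1 was lower at each later passage within a stage except from passage 3 to 4 of mouse_283. A slope shared by both stages was -0.57 log2 units per passage (SE 0.20, unadjusted p = 0.0143, adjusted p = 0.589). Without passages 3 and 4 of mouse_283 it was -0.43 per passage (unadjusted p = 0.000426, adjusted p = 0.531). No gene of the 13793 passed the threshold for this slope, while 880 had an unadjusted p under 0.05. The other members' slopes lay between -0.80 for Mest and 0.52 for H19, and none passed.

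Cdkn1c encodes p57Kip2, an inhibitor of cyclin-dependent kinases expressed from the maternal copy, and its fold changes had opposite signs in the 2 animals. In mouse_285 it had 10.0, 12.0 and 10.1 CPM at passages 11, 12 and 13, against 5.39 and 9.26 CPM at passages 2 and 4. In mouse_283 it had 4.58, 4.66 and 3.98 CPM at passages 11, 12 and 13, against 4.09, 7.27 and 11.0 CPM at passages 2, 3 and 4. The late libraries of mouse_285 lay above both of its early ones, as did 18.3% of tested genes in that animal, and in mouse_283 the stages overlapped. The log2 fold change was 0.55 within mouse_285 (SE 0.40, adjusted p = 0.992) and -0.76 within mouse_283 (SE 0.36, adjusted p = 0.271). The difference between them was 1.31 (SE 0.54, unadjusted p = 0.0333, adjusted p = 0.990), and no gene of the 13793 passed that interaction test, with 282 at an unadjusted p under 0.05. Without passages 3 and 4 of mouse_283 the value within mouse_283 was 0.11, so its negative sign came with those 2 libraries, and the interaction was 0.44 (adjusted p = 0.599); both then rest on 1 early library of mouse_283. Over both animals the log2 fold change was -0.19 (SE 0.32, adjusted p = 0.708), or 0.39 without those libraries (adjusted p = 0.351). Without passage 2 of mouse_283 the interaction of Cdkn1c passed (1.60, adjusted p = 0.0170), in a fit in which 2334 genes did. The early libraries of mouse_283 in that fit were only passages 3 and 4, with the steep GC trend.

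Mest, a protein of the alpha/beta hydrolase fold, had 0.629, 0.437 and 0.496 CPM at passages 11, 12 and 13 of mouse_285, against 0.397 and 0.0511 CPM at passages 2 and 4. In mouse_283 Mest had 0.281, 0.522 and 0.207 CPM at passages 11, 12 and 13, against 1.10, 0 and 0.145 CPM at passages 2, 3 and 4. These are reads outside the stretch shared with Copg2, and the log2 fold change was 0.40 (SE 0.77, adjusted p = 0.745), or -0.19 without passages 3 and 4 of mouse_283 (adjusted p = 0.906). Peg3, a paternally expressed zinc finger protein, had 50 reads in all and did not enter the fit. In mouse_285 it had 1, 0 and 0 reads at passages 11, 12 and 13, against 12 and 5 reads at passages 2 and 4. In mouse_283 it had 10, 8 and 5 reads at passages 11, 12 and 13, against 6, 0 and 3 reads at passages 2, 3 and 4. Its late rate was 0.0391 of the early rate in mouse_285 (exact 95% counting interval 0.000935 to 0.249) and 2.24 times the early rate in mouse_283 (0.999 to 5.50). An exact two-sided permutation of the stage labels within animals gave p = 0.4 for Peg3, over 200 arrangements that cannot give less than 0.005. It averages the 2 animals, so opposite changes cancel in it. Without the filter on low counts, edgeR gave Peg3 a log2 fold change of -4.31 within mouse_285 (adjusted p = 0.228) and 1.14 within mouse_283 (0.599). The interaction was then -5.45 (unadjusted p = 0.00165, adjusted p = 0.325). Late values lay below early ones in mouse_285, as for 18.4% of tested genes, and overlapped them in mouse_283.

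**Figure D3:**
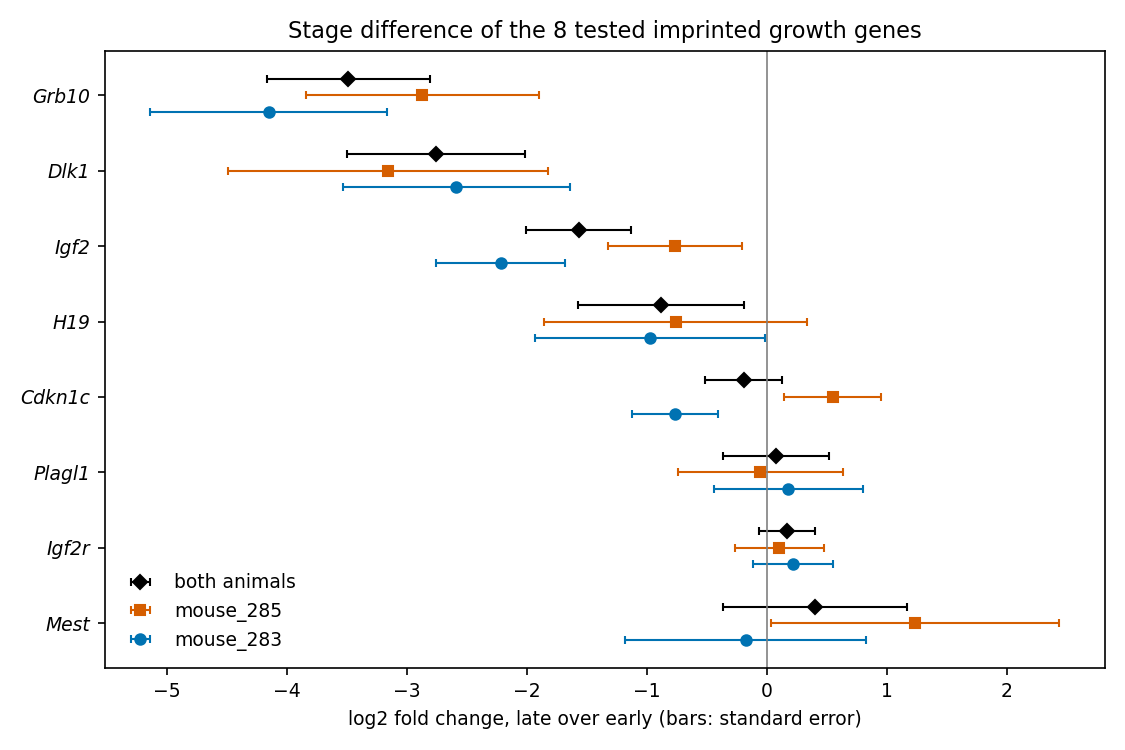
Log2 fold change, late over early (horizontal axis), with its standard error for the 8 tested members, over both animals (black diamonds), within mouse_285 (orange squares) and within mouse_283 (blue circles). Grb10, Dlk1 and Igf2 lie below 0 in all 3 estimates, and Cdkn1c lies at 0.55 in mouse_285 and -0.76 in mouse_283.

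Between the animals, none of the 8 tested members passed the threshold, and of all genes 0.0798% did. Unadjusted, 3 members had a p under 0.05, Igf2, Cdkn1c and Dlk1, as did 696 of the 13793 genes. Igf2 averaged 5.08 CPM in mouse_285 and 3.62 CPM in mouse_283. Cdkn1c averaged 9.36 CPM in mouse_285 and 5.94 CPM in mouse_283, and Dlk1 0.226 CPM in mouse_285 and 0.875 CPM in mouse_283.  The log2 differences, mouse_285 over mouse_283, were 0.97 for Igf2 (SE 0.44), 0.71 for Cdkn1c (SE 0.32) and -1.75 for Dlk1 (SE 0.78), each with an adjusted p of 0.892. Without passages 3 and 4 of mouse_283 the Dlk1 difference was -1.16. Cdkn1c passed without passages 3 and 4 of mouse_283 (1.16, adjusted p = 0.0201). Animal here stands for everything that differed between the 2 cultures, which cannot be told apart.

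For each member that averaged at least 1 CPM, up to 3 genes with the most similar profile over the 11 libraries were sought among 9681 genes of at least 5 CPM. The measure was Pearson's r of log2 CPM, given as a description, since all points share their libraries. Cdkn1c was closest to Gip, the hormone of enteroendocrine K cells (r = 0.87, and 0.92 over the 9 libraries without passages 3 and 4 of mouse_283), then to Sema7a (0.85) and Vwa2 (0.84). Igf2 was closest to the potassium channel subunit gene Kcns3, the Wnt receptor gene Fzd8 and Cyp2u1, each with r = 0.94. Igf2r was closest to Bcor (0.97) and Lamc1 (0.96). For Plagl1 the values were 0.96 for Atp13a3, Ptprd and Naip6 alike over 11 libraries, and 0.87, 0.84 and 0.82 over the 9 others.

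The partners of IGF2 outside the imprinted list were looked at as a list of 42 genes of IGF and insulin signalling, of which 36 were tested. Of these 3 were higher late, 1 was lower and 32 did not pass, where 0.725% of all genes were called higher and 2.41% lower. The median log2 fold change was -0.10 against -0.02 over all genes. An unadjusted p under 0.05 was seen for 14 of the 36, as for 3288 of all 13793 genes. Igf1r, the receptor through which IGF1 and IGF2 signal, had 0.671, 1.06 and 1.49 CPM at passages 11, 12 and 13 of mouse_285, against 1.93 and 1.64 CPM at passages 2 and 4. In mouse_283 Igf1r had 0.281, 0.228 and 0.310 CPM at passages 11, 12 and 13, against 2.57, 1.72 and 2.60 CPM at passages 2, 3 and 4. Late values lay below early ones without overlap, as for 5.61% of all tested genes within each animal and 3.63% over both animals together. The late values of mouse_283 rested on 6, 7 and 6 reads. The log2 fold change of Igf1r was -1.98 (SE 0.46, adjusted p = 0.0372). Its call ended in 9 of 19 other fits, among them those without any single late library other than passage 13 of mouse_285 and those without passage 3 or passage 4 of mouse_283, with adjusted p up to 0.123.

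The 3 that were higher late belong to the system that frees IGF from its binding proteins. Pappa2 encodes a protease that cuts IGF binding proteins, and the stanniocalcins encoded by Stc1 and Stc2 inhibit such proteases. Stc2 had 77.4, 93.0 and 103 CPM at passages 11, 12 and 13 of mouse_285, against 32.0 and 32.2 CPM at passages 2 and 4. In mouse_283 Stc2 had 110, 116 and 127 CPM at passages 11, 12 and 13, against 55.3, 79.8 and 69.4 CPM at passages 2, 3 and 4 (log2 fold change 1.10, SE 0.18, adjusted p = 0.00891), and without the animal term the adjusted p was 0.0563. The late range of Stc2 over both animals, 77.4 to 127 CPM, met the early range of 32.0 to 79.8 CPM through passage 11 of mouse_285 and passage 3 of mouse_283, and within each animal the stages were apart. Stc1 averaged 2.64 ± 0.579 CPM late and 0.794 ± 0.468 CPM early (SD, n = 6 and 5; 1.85, SE 0.36, adjusted p = 0.0169), and the call was lost without passage 13 of mouse_283 (adjusted p = 0.0576), without passage 4 of mouse_285 (0.0640) and with GC and length offsets (1.29, adjusted p = 0.0698). Pappa2 averaged 10.5 ± 3.44 CPM late and 3.39 ± 1.84 CPM early (SD, n = 6 and 5; 1.60, SE 0.39, adjusted p = 0.0429), with passage 12 of mouse_283 at 3.95 CPM inside the early range. The Pappa2 call ended in 10 of 19 other fits, among them those without any single library other than passage 12 or passage 2 of mouse_283, with adjusted p up to 0.142. Igf1 had 3 reads in all libraries together.

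**Figure D4:**
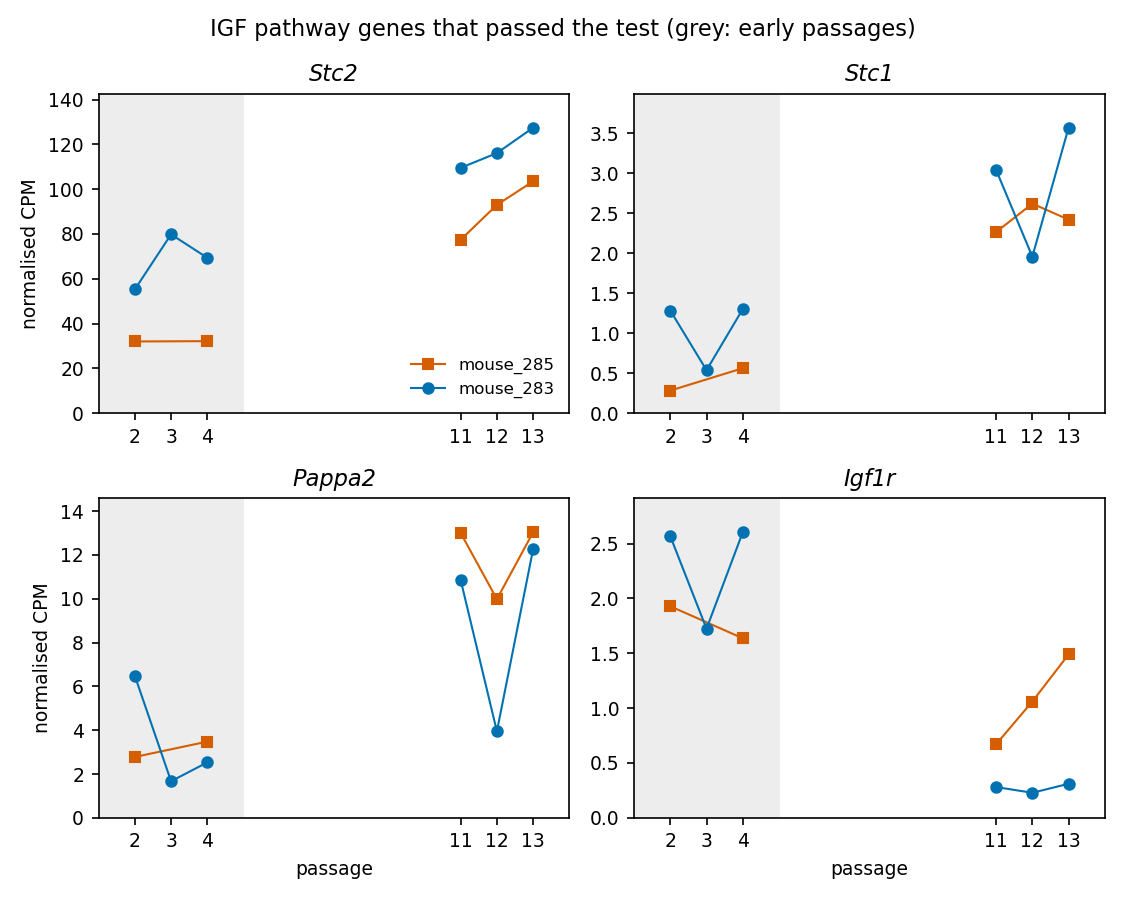
Normalised CPM (vertical axis, linear, own scale per gene) against passage number for the 4 genes of IGF signalling that passed the test late against early, 1 point per library, orange squares for mouse_285 and blue circles for mouse_283, early passages shaded. Stc2 lies at 77.4 to 127 CPM in late and 32.0 to 79.8 CPM in early libraries, and Igf1r at 0.228 to 1.49 CPM in late and 1.64 to 2.60 CPM in early ones.

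Of 66 other imprinted genes, 58 were found in the files, 13 of these had 0 reads in every library and 33 were tested. None was higher late and 1 was lower, where 3.13% of all genes were called, and the median log2 fold change was -0.12. An unadjusted p under 0.05 was seen for 10 of the 33, as for 3288 of all 13793 genes. That gene was Ppp1r9a, a neighbour of Peg10 whose product binds actin, at 2.27 ± 1.54 CPM late and 8.62 ± 5.27 CPM early (SD, n = 6 and 5; -2.05, SE 0.47, adjusted p = 0.0364). Its call ended in 8 of 19 other fits, among them those without any single late library other than passage 11 of mouse_285 and those without either early library of mouse_285, with adjusted p up to 0.0999. Smoc1, a secreted matrix protein, had the next smallest p at 0.492 ± 0.410 CPM late and 2.70 ± 1.61 CPM early (SD, n = 6 and 5; -2.50, SE 0.73, adjusted p = 0.0838). By counts that ignore strand, the most abundant genes of this list were Kcnq1 at 302 ± 31.3 CPM late and 419 ± 207 CPM early, and Cd81 at 231 ± 29.3 CPM late and 290 ± 105 CPM early (SD, n = 6 and 5). Gnas had 4425 reads without strand and 171777 when both strand columns were summed, so 97.4% of its reads also fell on an overlapping gene and its level of 19.3 CPM without strand compares with 710 CPM for the summed columns.

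The 15 genes listed for imprint maintenance and chromatin insulation gave 13 tested and none called, with 5 at an unadjusted p under 0.05, as were 3288 of all 13793 genes. Their median log2 fold change was 0.68, with 11 above 0 and 2 below, where all genes had a median of -0.02. The 4 with the smallest p were nearer 0 without passages 3 and 4 of mouse_283, at 1.45 for Zfp57 (adjusted p = 0.172), 0.60 for Smc1a (0.156), 0.47 for Hells (0.323) and 0.27 for Ctcf (0.294). With all libraries, Zfp57, which encodes the protein that protects methylated imprints, had 1.30 ± 0.863 CPM late and 0.340 ± 0.431 CPM early (SD, n = 6 and 5; 2.13, SE 0.62, adjusted p = 0.0864). It passed in 4 of 18 other fits, among them DESeq2 (adjusted p = 0.0120), with adjusted p up to 0.248. Ctcf, whose product insulates Igf2 from the enhancers near H19, had 90.8 ± 6.10 CPM late and 56.6 ± 27.8 CPM early (SD, n = 6 and 5; 0.68, SE 0.28, adjusted p = 0.172). Enteroendocrine markers summed to 801 to 1256 CPM late and 648 to 1030 CPM early. Chgb alone averaged 640 ± 68.0 CPM late and 225 ± 88.5 CPM early (SD, n = 6 and 5). Of the 15 tested, Chgb and Neurod1 were called higher and Sst lower, where 3.13% of all genes were called. The log2 fold changes of the 15 lay above 0 for 7 and below 0 for 8, with a median of -0.12. The Neurod1 call was lost without any single library other than passage 13 of mouse_285 and passages 2 and 3 of mouse_283 (adjusted p up to 0.0861), and the Sst call without passage 13 of mouse_283 (0.0645). The part of enteroendocrine cells in the levels of Cdkn1c was not tested. No label gives a date or batch of culture, RNA extraction or sequencing, so stage and any such batch cannot be told apart.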

How the data were processed

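RNA was sequenced from 11 organoid libraries, 1 per animal and passage. The authors deposited read counts per gene 3 times for each library, without regard to strand and for either strand. Trimmomatic, STAR and the build mm9 are named in the submitters' processing notes. Tool versions and the annotation release are not given in the sources used here, and 0 columns belonged to other samples. Stages and animals were taken from the sample titles, whose passage number is 1 lower than in the names of the tables. The unstranded counts were used as deposited, without the summary lines for unmapped, multimapping, ambiguous and unassigned reads.

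Genes kept by filterByExpr (13793) were normalised by TMM and tested with the quasi-likelihood F test of edgeR 4.0.16 in R 4.3.3, two-sided, with Benjamini-Hochberg adjustment over all of them and a threshold of 0.05. The model held stage and animal, because libraries of both stages came from the same 2 animals, which is where the pairing comes from. Interaction, within-animal and passage terms were tested in models holding them. The standard error is the fold change divided by the square root of F, and log2 CPM used a prior count of 2. Peg3 was tested by permutation of log2(CPM + 0.1). Alternatives used DESeq2 1.42.0, its size factors, other filters, the summed strand columns, no animal term, splines of 5 degrees of freedom on GC content and transcript length (known for 96.97% of tested genes) and fits without single libraries or without passages 3 and 4 of mouse_283. The procedure was also run on simulated counts, drawn from the fitted model with independent libraries. Such counts hold neither the GC trend nor successive passages of 1 culture, so they cannot show the error rate in these data. Named were the 10 members, the up to 4 genes of each other list with the smallest p, and the profile neighbours, of which 1 is not reported here. The members and lists were chosen with earlier results of these data known. Of 66 other imprinted genes, Kcnq1ot1, Snrpn, Snurf, Zim2, Zfp264, Rian, Mirg and Peg13 were not matched and not analysed here. Gene lengths, GC content and overlaps came from an annotation of a later build, so no gene coordinates are given.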

Additional observations from a re-analysis of the deposited data

Results flagged for a closer look

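Of 18 groups of member values examined for a library far from the rest, 1 had such a library, about the rate of 1 in 20 that chance gives. The late Grb10 values had their highest library, passage 13 of mouse_285, at 0.186 CPM, and the gap to the nearest of the others was 0.665 of the group's range, above the 95% critical ratio of 0.625 for 6 samples. That library held 3 Grb10 reads, and without it the log2 fold change of Grb10 was -4.17 (adjusted p = 0.0154).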

How the results depend on the processing

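Late against early, 432 genes were called (100 higher, 332 lower), against 1340 with DESeq2 (497 and 843), 1819 without a filter on low counts (1053 and 766), 956 with GC and length offsets (393 and 563), 632 without passages 3 and 4 of mouse_283 (189 and 443), 407 with no replicate block, that is without the pairing by animal (86 and 321), and 179 to 4868 leaving out 1 library (39 to 2597 higher, 134 to 2271 lower); the 4868 came without passage 2 of mouse_283. Members called were 1, against 3 with DESeq2, 3 without the filter, 2 with the offsets, 0 at 1 CPM in at least 5 libraries, where Grb10 was not tested, 1 with no replicate block and 0 to 2 leaving out 1 library. Igf2 and Dlk1 passed with DESeq2 (adjusted p = 0.00475 and 0.00658) and without the filter (0.000296 and 0.000124), and Dlk1 with the offsets (0.0405) and without passage 2 of mouse_283 (0.0161). Every fit without passage 2 of mouse_283 keeps only passages 3 and 4, with the steep GC trend, as early libraries of that animal. The block changed 4 calls among named genes: without it Stc2 (adjusted p = 0.0563), Igf1r (0.0691) and Ppp1r9a (0.0650) no longer passed and Smoc1 did (0.0458).

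Between the animals 11 genes were called, against 119 with DESeq2, 207 without the filter, 90 without passages 3 and 4 of mouse_283 (1 member, Cdkn1c), 32 with the offsets and 3 to 71 leaving out 1 library. The interaction gave 0, against 15, 65, 4 and 1 under the same 4 settings and 0 to 2334 leaving out 1 library (0 to 2 members, Cdkn1c and Plagl1 without passage 2 of mouse_283). Within mouse_283, 204 genes and 0 members were called, against 752 and 2 without passages 3 and 4, which leaves 1 early library of mouse_283 with the spread taken from the other groups, and 41 to 7668 and 0 to 4 leaving out 1 library; within mouse_285, 0 genes were called, against 320 and 0 to 58. Cdkn1c was above 0 late against early in 4 of 19 alternatives, Plagl1 in 13, Igf2r in 18. Leaving out the normalisation factors moved no member's mean level by more than its SD, but single libraries moved more. The factor of passage 3 of mouse_283 was 0.725, against 0.970 to 1.09 in the others. Dlk1 in that library was at 2.42 CPM with the factor and 1.76 CPM without it. Grb10, Dlk1, Mest and Peg3 are limited by read number.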
